A study of Homo sapiens with 10 samples.

Results

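The HOX genes studied here were 38 of the 20090 protein-coding genes measured in these data, taken from the 4 HOX clusters of the hg19 (GRCh37) genome by gene name. The HOXA cluster on chromosome 7 held 10 of them, HOXB on chromosome 17 held 10, HOXC on chromosome 12 held 9 and HOXD on chromosome 2 held 9. Each gene was measured over its body plus 2 kb on each side, called its window below. H3K4me1, the histone mark of enhancers and of chromatin around active genes, was mapped by ChIP-seq in the breast cancer lines SKBR3 and BT474, with 2 samples per line. HER2 itself was mapped on chromatin by ChIP-exo, a form of ChIP in which an exonuclease trims the DNA to the bound site, with 1 sample each of SKBR3 and BT474 after 3 h of vehicle (H2O) or of EGF at 100 ng/ml. Both lines are established cell lines and carry an amplified ERBB2 locus, the gene for HER2. GEO labels the H3K4me1 samples as asynchronous cells, whereas the study describes them as EGF-treated, and both lines are labelled alike. No source says that the samples of a line came from separate cultures, so p-values measure only the spread between these samples.

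HOX genes encode homeodomain transcription factors that give positional identity along the body axis. Within a cluster the genes stand in the order in which they act, from anterior (paralogue groups 1 to 3) through central (4 to 8) to posterior (9 to 13), and the same-numbered genes of different clusters are paralogues. In differentiated cells Polycomb proteins hold whole stretches of a cluster silent and Trithorax proteins, which include the H3K4 methyltransferases of the KMT2 family, keep others open. HOX proteins bind DNA together with TALE cofactors of the PBX, MEIS and PKNOX families.

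H3K4me1 islands are the regions called enriched for the mark. They held 15097156 to 18713926 reads per sample and covered 9.75 to 10.6% of the genome. A window counts as covered where an island lies over it, and its level is given as island reads per kb of window, scaled to 1000000 island reads per sample. The island with the fewest reads held 20 to 28 in each sample, so a window listed at 0 may hold reads that did not form an island. The luminal markers ERBB2 and KRT8 were covered in all 4 samples (ERBB2 97.4 to 100% and KRT8 61.0 to 66.3%). Of 7 luminal genes, 6 had islands in all 4 samples. GATA3, the exception, was covered for 4.62% and 0% in SKBR3 against 50.9% and 48.5% in BT474. The progesterone receptor gene PGR was covered for 2.30% and 4.03% in SKBR3 and 89.1% and 87.1% in BT474. Of 4 mesenchymal or basal genes, KRT5, TP63 and KRT14 were higher in SKBR3 (KRT14 at 68.1% and 68.1% against 0% and 0%) and VIM was higher in BT474 (log2 ratio of SKBR3 over BT474 -1.42, edgeR adjusted p = 0.0133). Blood genes were not at 0, with islands on PTPRC and CD3E in all 4 samples, and both were higher in SKBR3. The part of other cell types in the results was not tested.

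H3K4me1 at the HOX genes was higher in BT474 than in SKBR3 for most genes, and the HOXB cluster carried the largest difference. Of the 38 windows, 33 held enough reads for the test, and 23 of these differed between the lines (edgeR quasi-likelihood test over all windows, adjusted p below 0.05). BT474 was higher at 20 and SKBR3 at 3, HOXA6, HOXA7 and HOXC13. Of the 20, 16 had no island in SKBR3, and HOXA6 and HOXA7 had none in BT474. These passed the read filter only through the line where they were high, so their calls add nothing to the islands themselves. With islands in both lines, HOXA10, HOXC4, HOXC5 and HOXC6 were called higher in BT474 and HOXC13 in SKBR3, while 10 did not pass. The background is high, since 60.9% of the 16260 windows tested across the genome differed, 33.9% with BT474 higher and 27.1% with SKBR3 higher. Among the HOX windows tested, 60.6% were higher in BT474 and 9.09% in SKBR3. Without HOXB, BT474 was higher at 10 of 23 (43.5%) and SKBR3 at 3. The windows are not independent, since 31 of the 38 share bases with the window of another HOX gene.

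Many HOX windows had an island in one line only. An island lay in both BT474 samples and in no SKBR3 sample at 16 of the 38 HOX windows (42.1%), against 10.0% of all windows. Outside HOXB this held for 6 of 28 (21.4%). The reverse, an island in both SKBR3 samples only, was found at 2, HOXA6 and HOXA7 (3.12% of all windows). Islands were found in all 4 samples at 12 windows (60.8% of all windows) and in none at 2, HOXD4 and HOXD11 (15.4% of all windows), while the other 6 had an island in some samples only. The median HOX window was covered for 0% in both SKBR3 samples and for 48.7% and 52.2% in the BT474 samples. For the 28 windows outside HOXB, the median of the mean cover per line was 18.3% in SKBR3 and 21.3% in BT474. The median over all windows was 9.74% and 10.4% in SKBR3 and 13.4% and 12.5% in BT474. The cover of both BT474 samples lay above that of both SKBR3 samples at 20 HOX windows (37.8% of all windows), the reverse held at 6 (26.6% of all windows), and the samples overlapped at 12. The plot of cover for every gene shows the HOXB windows at the extremes of the scale and the HOXC and HOXA windows between them.

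**Figure D1:**
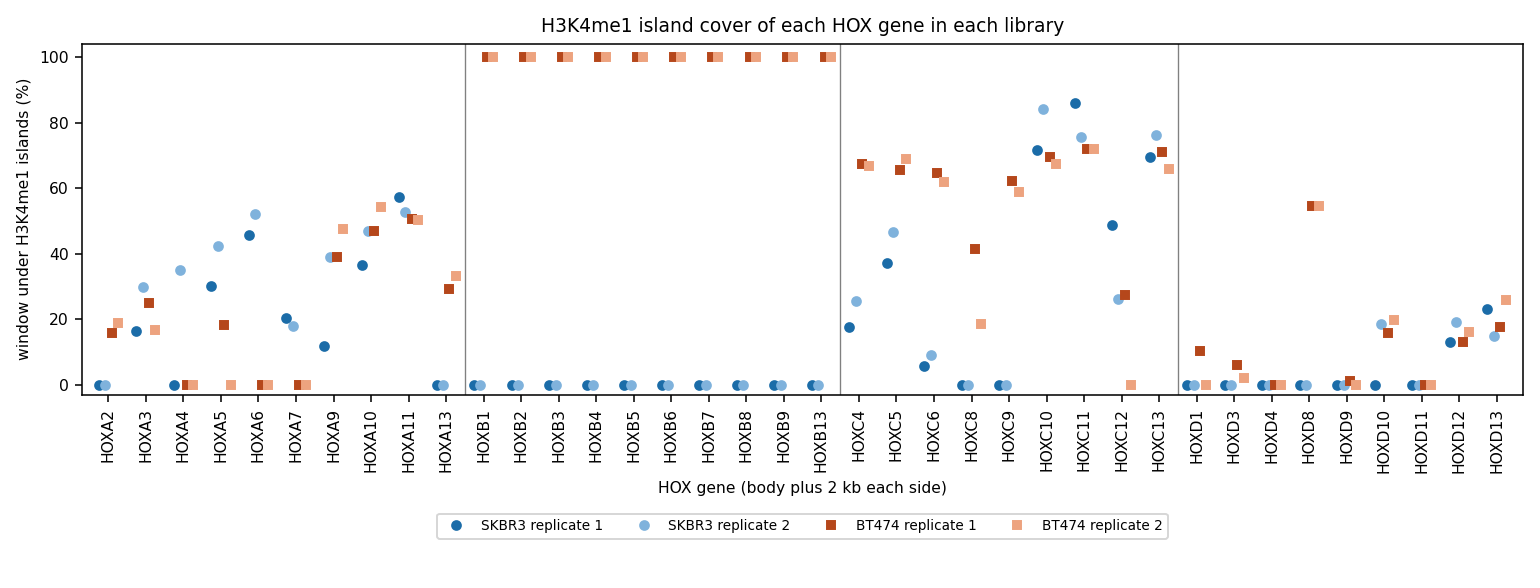
Share of each HOX window (gene body plus 2 kb each side, in percent) under H3K4me1 islands, with 1 point per sample, circles for SKBR3 and squares for BT474, genes ordered by cluster and paralogue number. All 10 HOXB windows sit at 100% in both BT474 samples and at 0% in both SKBR3 samples, while HOXA6 and HOXA7 carry islands in SKBR3 only.

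By cluster, island cover was measured from the first to the last gene plus 2 kb. The genes lie at chr7:27139973-27239710 (HOXA), chr17:46605888-46806112 (HOXB), chr12:54332615-54449814 (HOXC) and chr2:176957449-177055635 (HOXD). The HOXA cluster was covered for 16.0% and 27.4% in the SKBR3 samples and for 28.8% and 26.3% in the BT474 samples. These samples overlapped. HOXB was covered for 0% in both SKBR3 samples and for 75.9% and 74.5% in BT474. HOXC was covered for 37.5% and 41.3% in SKBR3 and for 63.0% and 57.4% in BT474. HOXD had the least of the mark in BT474, with 11.8% and 10.2% there, and 2.35% and 4.89% in SKBR3. For HOXB, HOXC and HOXD both BT474 samples lay above both SKBR3 samples, but 2 samples against 2 cannot go below an exact permutation p of 0.333, so no test was made on these values. The level of the mark in SKBR3 was 0.618 times that in BT474 over HOXA, 0.572 times over HOXC and 0.255 times over HOXD. No ratio is given for HOXB, which was listed at 0 in SKBR3.

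**Figure D2:**
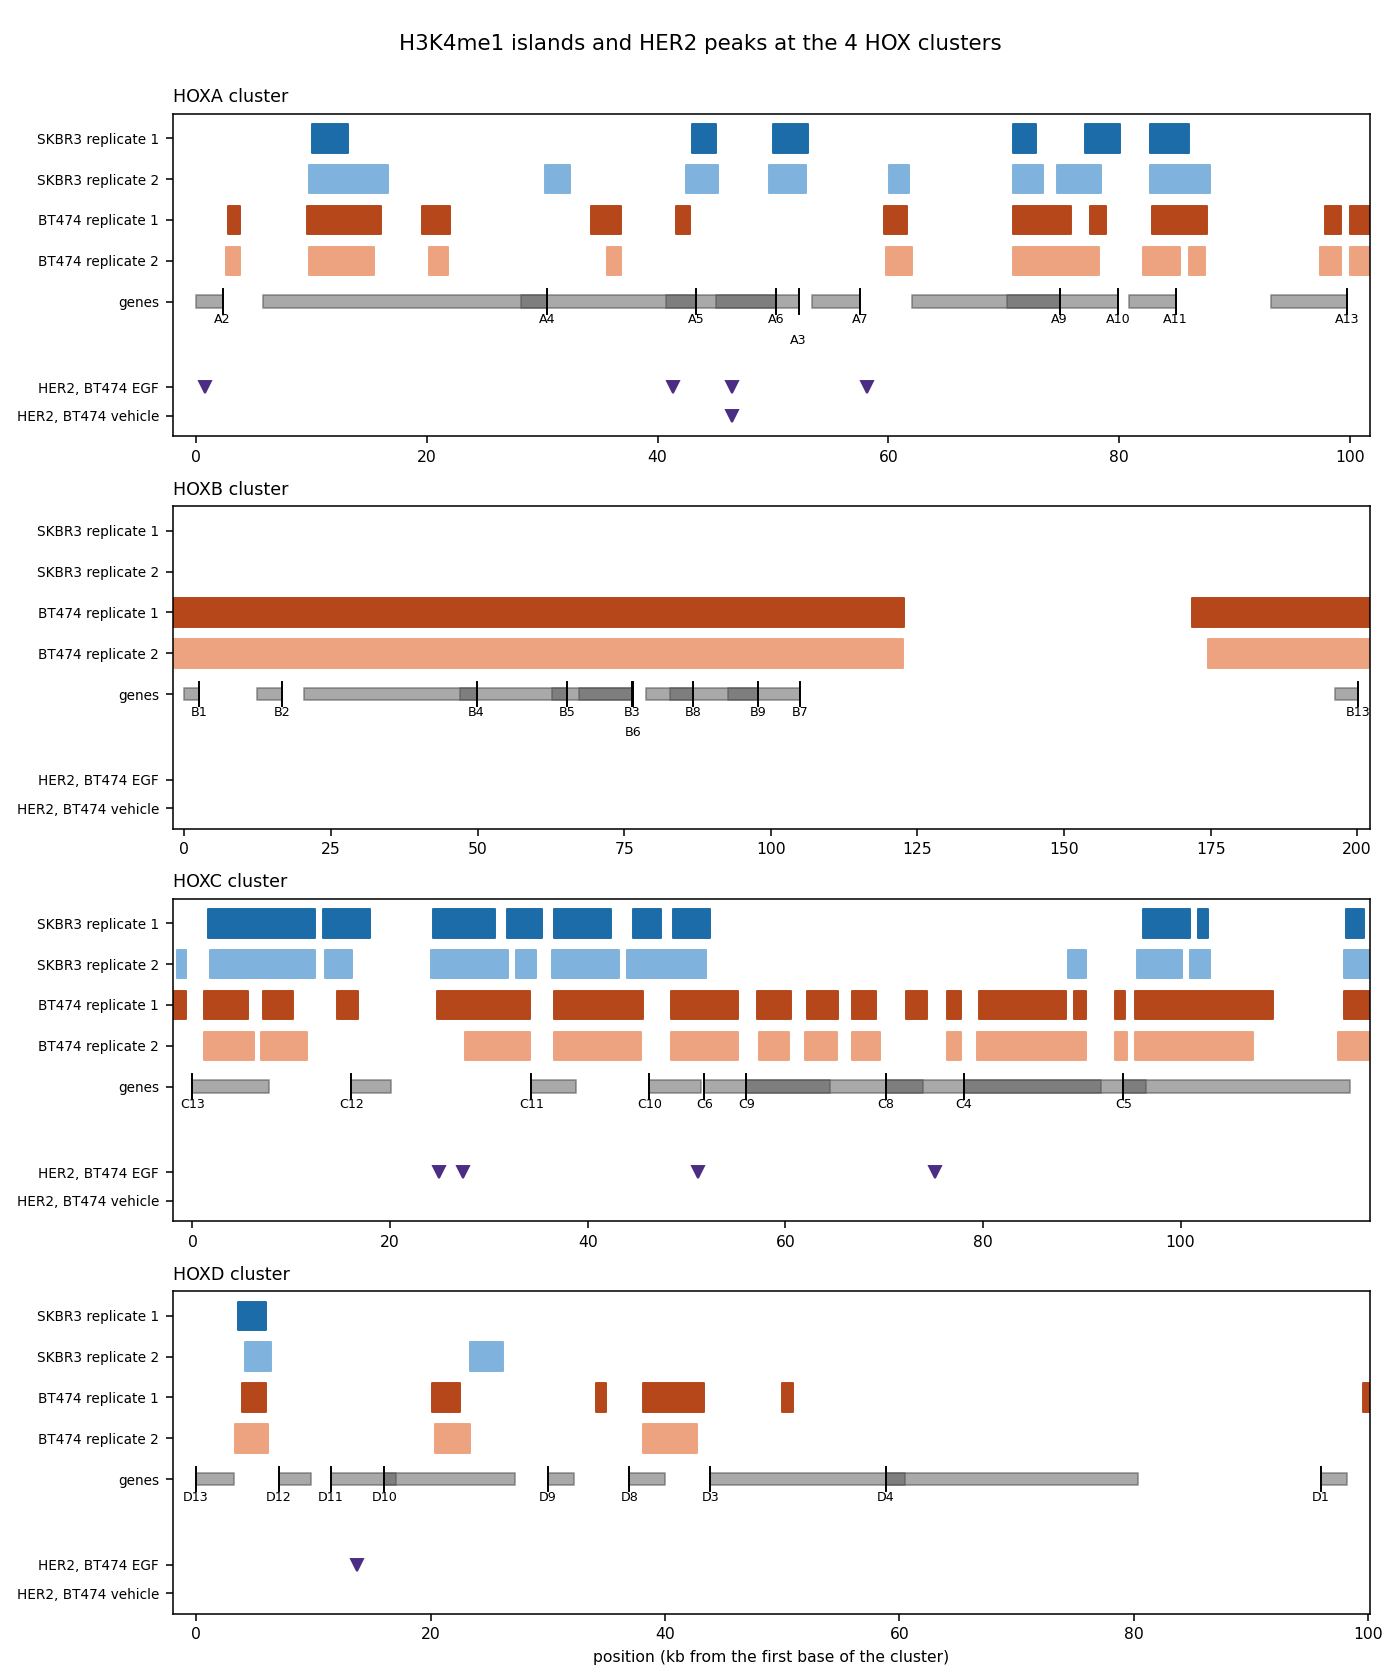
H3K4me1 islands (bars, 1 row per sample), HOX gene bodies (grey, with a black line at the start of each gene) and HER2 peaks in BT474 (triangles) along each cluster in kb from its first base, drawn from 2 kb before to 2 kb after the cluster. HOXB holds 2 long islands in each BT474 sample, which run past the edges of the map, and none in SKBR3, and HOXC has an SKBR3 gap of 36.2 kb over HOXC9 and HOXC8. The 3 HER2 peaks that lie outside the clusters are not drawn, and SKBR3 had none.

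HOXB was the cluster in which the lines differed throughout. All 10 HOXB windows were wholly under islands in both BT474 samples and free of islands in both SKBR3 samples. Only 19 of the 20090 windows in the genome (0.0946%) had this pattern, and 80 (0.398%) were wholly under islands in both BT474 samples. Both counts include the 10 HOXB windows themselves, and PRAC1 and PRAC2, which lie under the same island as HOXB13. In BT474 replicate 1 a single island of 140.8 kb with 18393 reads ran over HOXB1 to HOXB9, the 11th longest of that sample's 96291 islands. In replicate 2 it measured 189.0 kb with 21183 reads and was the 2nd longest of 89477. HOXB13, which lies apart from the other HOXB genes and is known for its role in the prostate, was under another island of 76.6 kb in replicate 1 and 65.0 kb in replicate 2. Between the islands lay 49.2 kb without the mark in either BT474 sample. In SKBR3 the stretch without an island that holds the cluster was 275.6 kb long in replicate 1 and 266.8 kb in replicate 2. Stretches at least this long made up 1.80% and 1.96% of all gaps between islands in those samples, by count. The median gap was 8.2 and 8.4 kb, so the long gaps hold a larger share of the genome than of the count.

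The level at HOXB1, a hindbrain patterning gene and the most anterior of the cluster, was 0 and 0 in SKBR3 and 6.98 and 7.42 in BT474 (adjusted p = 0.00131 by edgeR). At HOXB13 it was 0 and 0 against 7.53 and 8.34 (edgeR adjusted p = 0.00131), the highest of the HOX genes in BT474. HOXB2, HOXB3, HOXB4, HOXB5, HOXB6, HOXB7, HOXB8 and HOXB9 had the level of HOXB1 within rounding. This is so because the deposited lists give 1 read total per island and the reads were shared out by length, so differences among the genes under an island cannot be seen. The edgeR adjusted p was 0.000918 for HOXB3, which has the longest body, and lay between that and the value of HOXB1 for the others. The median level over all windows was 0.352 and 0.346 in the BT474 samples.

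The HOXB region also differed in its surroundings. In islands between 100 kb and 1000 kb from the cluster, the reads per kb of island were 0.706 and 0.724 times the genome average in the SKBR3 samples and 1.63 and 1.58 times in the BT474 samples. For the other 3 clusters these values lay between 0.788 and 1.08 in all samples. Islands covered 6.93% and 7.14% of this stretch around HOXB in SKBR3 and 35.0% and 35.1% in BT474. Around HOXD the cover was 4.60% and 3.81% against 9.39% and 9.89%. It was 24.9% and 25.8% against 20.1% and 19.5% around HOXA, and 22.7% and 23.1% against 27.7% and 26.5% around HOXC. Within the cluster the BT474 islands held 2.19 and 2.25 times the genome average. The part of the surroundings in the size of the difference was not tested.

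The stretch of 250 bases before the start of HOXB1 is shown because it lay wholly under the island in both BT474 samples, with none in SKBR3, and because it holds a match to the HOX-PBX site TGATNNAT. This motif, searched for on both strands, marks the composite site at which a HOX protein and PBX bind side by side. The sequence is from RefSeq (GRCh38.p14) and lies at chr17:46608374-46608623 of GRCh37 on the minus strand, and capitals mark the match.
HOXB1 upstream: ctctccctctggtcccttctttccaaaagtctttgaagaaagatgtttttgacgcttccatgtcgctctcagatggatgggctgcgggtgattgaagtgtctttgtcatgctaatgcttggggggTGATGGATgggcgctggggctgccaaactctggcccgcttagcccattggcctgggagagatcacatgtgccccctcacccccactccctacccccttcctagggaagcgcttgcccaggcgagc
RefSeq promoters matched 20 of the 38 genes, with 26 distinct sequences. The motif was found in 3 of these 26 (11.5%), those of HOXB1, HOXA2 and HOXD11, against 6.49% of all 34788 promoters of the same length.

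HOXC was marked in both lines, with islands of both at the posterior genes and of BT474 alone in the middle. SKBR3 had no island in either sample over 36.2 kb (chr12:54385001-54421200), which holds HOXC9 and HOXC8. HOXC9, a posterior gene, was covered for 0% and 0% in SKBR3 and for 62.1% and 58.8% in BT474, at levels of 2.14 and 2.13 in BT474 (edgeR adjusted p = 0.0017). HOXC8, a central gene, was covered for 0% and 0% in SKBR3 and 41.5% and 18.4% in BT474 (edgeR adjusted p = 0.00702). The BT474 samples both lay above SKBR3 at these genes, though they differed between themselves at HOXC8.

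HOXC6 showed the largest ratio among the HOX windows with islands in both lines. Its level was 0.139 and 0.210 in SKBR3 and 1.93 and 1.91 in BT474, a log2 ratio of SKBR3 over BT474 of -3.28 (SE 0.21, edgeR adjusted p = 0.00181). HOXC4, the most anterior HOXC gene, was at 0.447 and 0.670 in SKBR3 and 2.41 and 2.39 in BT474 (log2 ratio -1.92, SE 0.21, edgeR adjusted p = 0.00409). HOXC5, next to it, was at 0.790 and 1.23 against 2.62 and 2.95 (log2 ratio -1.28, SE 0.27, edgeR adjusted p = 0.0223). The annotated bodies of HOXC4 and HOXC6 run over 39.1 and 40.2 kb and overlap in part, and HOXC5 lies within HOXC4. HOXC5 was no longer called without either BT474 sample (adjusted p = 0.107 and 0.143).

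At the posterior end the direction turned. HOXC13, which acts in hair and nail formation, was at 2.71 and 2.88 in SKBR3 and at 1.95 and 1.74 in BT474, a log2 ratio of 0.79 (SE 0.10, edgeR adjusted p = 0.0063). Its cover was similar in all samples, at 69.4% and 76.2% in SKBR3 and 71.0% and 66.0% in BT474, so the samples of the lines overlapped in cover and not in level. Within 2 kb of its start alone, the log2 ratio was -0.34 and did not pass the test. HOXC11 had the highest mean cover of the HOX genes in SKBR3, though HOXC10 and HOXC13 were above it in replicate 2 (85.9% and 75.5%, against 71.8% and 71.8% in BT474), with levels of 2.44 and 3.03 against 2.39 and 2.89 (edgeR adjusted p = 0.295). HOXC13 had the highest mean level in SKBR3. HOXC10 differed in opposite ways by cover and by level. It was covered for 71.6% and 84.1% in SKBR3 and for 69.6% and 67.4% in BT474, but its level was 1.58 and 2.10 against 3.03 and 3.10 (log2 ratio -0.55, SE 0.16, edgeR adjusted p = 0.0539). It passed in 7 of the alternatives, DESeq2 (adjusted p = 0.00685) and limma (0.0179) among them. HOXC12 was at 1.38 and 0.819 in SKBR3 and 0.405 and 0 in BT474 and did not pass the test (edgeR adjusted p = 0.334), but was called without BT474 replicate 1 (adjusted p = 0.0289), with 5 kb on each side (0.0345), with denser islands only (0.0192) and with limma (0.0450).

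**Figure D3:**
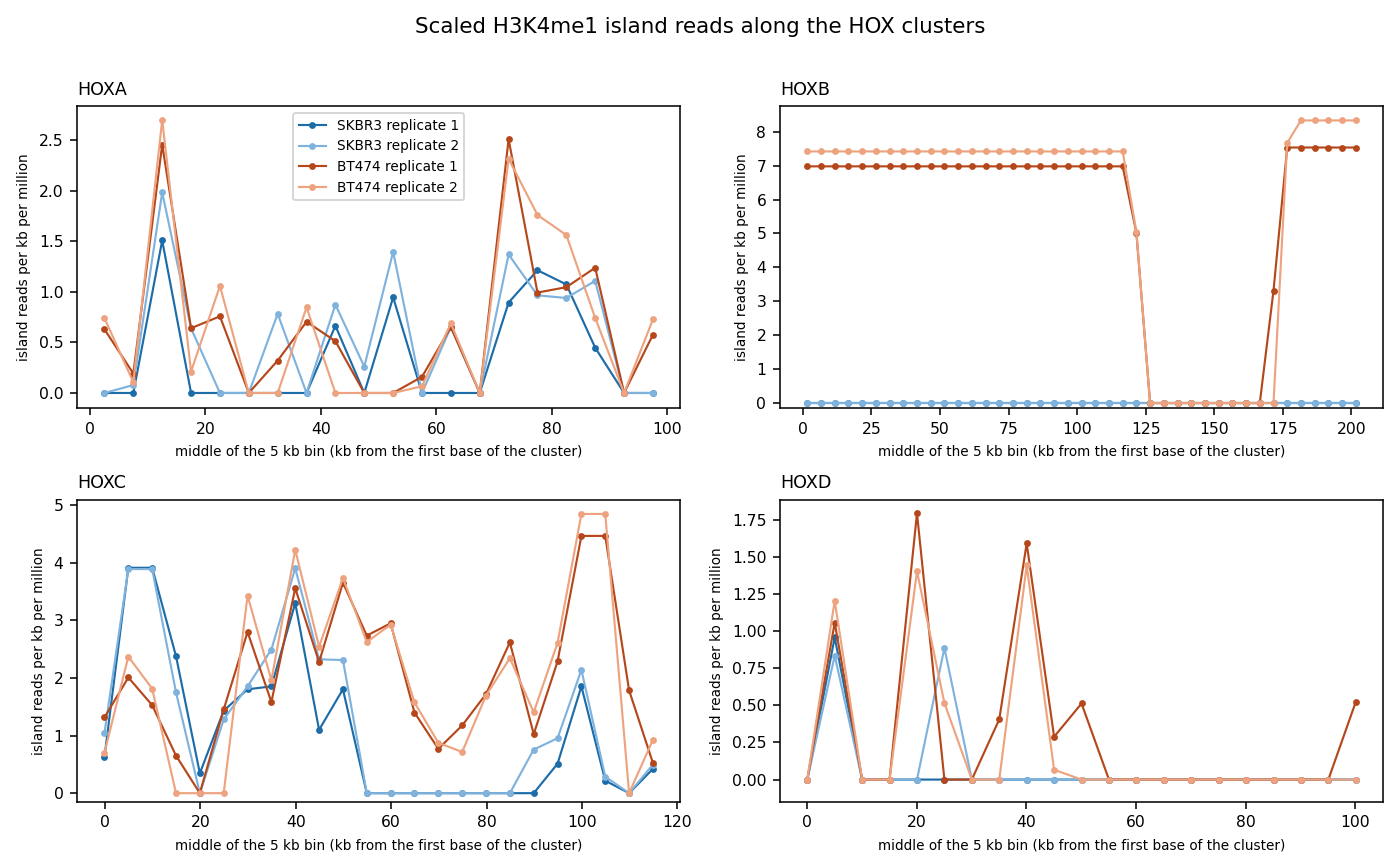
H3K4me1 level (island reads per kb, scaled to 1000000 island reads per sample) in 5 kb bins along each cluster, with 1 line per sample and position in kb from the first base of the cluster. The lines of HOXB are flat because 1 island spans many bins, and in HOXC the SKBR3 samples are above BT474 near HOXC13 and at 0 over HOXC9 and HOXC8.

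In 5 kb bins, 71 of the 106 bins of the 4 clusters held enough reads for the test, and 50 were higher in BT474 and 3 in SKBR3 (edgeR, adjusted p below 0.05). Across the genome, 35.1% of the 154318 bins tested were higher in BT474 and 27.6% in SKBR3. HOXB gave 31 of the 50, being all of its tested bins, and neighbouring bins there lie in 1 island. These 31 were at 0 in both SKBR3 samples and passed the read filter only through BT474. Their calls, and those of bins elsewhere at 0 in both samples of a line, add nothing to the islands themselves. HOXA, HOXC and HOXD together gave 19 of 40 bins with BT474 higher. HOXC gave 12 of 22, HOXA 5 of 14 and HOXD 2 of 4. The 3 bins higher in SKBR3 were a pair over the 3′ end of HOXC13 and beyond it, at 3.91 and 3.89 in SKBR3 against 2.01 and 2.37, and against 1.53 and 1.81, in BT474, and 1 that holds the stretch between HOXA6 and HOXA7, at 0.947 and 1.4 against 0 and 0.

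HOXA was the cluster in which islands of the lines alternated. Of its bases under islands in both SKBR3 samples (14.8 kb), 56.8% were also under islands in both BT474 samples, and these were 35.1% of the 23.9 kb marked in both BT474 samples. HOXA6, a central gene, was covered for 45.7% and 52.2% in SKBR3 and for 0% and 0% in BT474, at levels of 0.736 and 1.11 in SKBR3 (edgeR adjusted p = 0.00416). HOXA7, its neighbour, was covered for 20.3% and 17.8% in SKBR3 and for 0% and 0% in BT474, at levels of 0.319 and 0.445 (edgeR adjusted p = 0.00451). These windows share an SKBR3 island that ends before the body of HOXA7, and BT474 had no island over 16.8 kb there (chr7:27182801-27199600). With 5 kb on each side both lost the call (adjusted p = 0.242 and 0.129), and HOXA7 also lost it without either BT474 sample (adjusted p = 0.0599 and 0.0611).

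At both ends of HOXA the islands were those of BT474. HOXA2, which patterns the hindbrain and branchial arches, was covered for 0% and 0% in SKBR3 and for 15.8% and 18.9% in BT474 (edgeR adjusted p = 0.00425). HOXA13, which acts in the limb and urogenital tract, was covered for 0% and 0% in SKBR3 and for 29.4% and 33.1% in BT474 (edgeR adjusted p = 0.00396). HOXA10, a regulator of uterine development, was at 0.773 and 0.856 in SKBR3 and 1.28 and 1.49 in BT474 (log2 ratio -0.58, SE 0.15, edgeR adjusted p = 0.0383). This call was lost when any 1 of the 4 samples was left out (adjusted p between 0.0526 and 0.186). HOXA11 had the highest mean level of the HOXA genes in SKBR3, at 1.25 and 1.03 against 1.20 and 1.27 (edgeR adjusted p = 0.764). HOXA3, HOXA5 and HOXA9 did not pass the test either. HOXA3 was at 0.310 and 0.597 in SKBR3 and 0.555 and 0.489 in BT474 (log2 ratio -0.02, SE 0.35, edgeR adjusted p = 0.964). HOXA5, a regulator of lung development, was at 0.502 and 0.709 in SKBR3 and 0.387 and 0 in BT474 (edgeR adjusted p = 0.490). The samples overlapped at HOXA3, while at HOXA5 both SKBR3 samples lay above BT474, whose samples differed widely. HOXA5 was called without BT474 replicate 1 (adjusted p = 0.0473). HOXA9, known for its role in blood stem cells, was at 0.267 and 0.749 in SKBR3 and 1.08 and 1.19 in BT474 (log2 ratio -0.98, SE 0.54, edgeR adjusted p = 0.198). HOXA9 was called without SKBR3 replicate 2, at a log2 ratio of -1.86. HOXA4, at 0 and 0.624 in SKBR3 and 0 and 0 in BT474, was not tested.

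The 250 bases before the annotated 5′ end of HOXA3 are shown as the HOXA counterpart, since they lay wholly under an island in both SKBR3 samples and in neither BT474 sample. They lie between HOXA6 and HOXA7, at chr7:27192203-27192452 of GRCh37 on the minus strand, over exons of the antisense gene HOXA-AS3. Other HOXA3 promoters differed from it. That at chr7:27153462-27153711 lay wholly under islands in both BT474 samples and in SKBR3 replicate 2. That at chr7:27190570-27190819 was covered in SKBR3 only, and the rest had little or no cover. The sequence shown is from RefSeq (GRCh38.p14), and it holds no match to TGATNNAT.
HOXA3 upstream: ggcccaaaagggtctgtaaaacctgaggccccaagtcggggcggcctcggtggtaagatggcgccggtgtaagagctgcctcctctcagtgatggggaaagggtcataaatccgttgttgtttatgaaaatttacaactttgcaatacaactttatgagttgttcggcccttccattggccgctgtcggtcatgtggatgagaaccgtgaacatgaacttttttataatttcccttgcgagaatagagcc

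HOXD carried little of the mark in either line. HOXD8 was the exception in BT474, covered for 54.6% and 54.6% there and for 0% and 0% in SKBR3, at levels of 0.984 and 0.899 (edgeR adjusted p = 0.00392). HOXD3 was covered for 6.08% and 2.13% in BT474 and 0% and 0% in SKBR3 (edgeR adjusted p = 0.023), at levels of 0.128 and 0.0344 there. HOXD13, the posterior limb gene, was at 0.460 and 0.280 in SKBR3 and 0.466 and 0.559 in BT474 (log2 ratio -0.27, SE 0.42, edgeR adjusted p = 0.612). HOXD12 was at 0.258 and 0.361 in SKBR3 and 0.343 and 0.346 in BT474 (edgeR adjusted p = 0.945). HOXD10 was at 0 and 0.293 against 0.593 and 0.634 and did not pass the test either (edgeR adjusted p = 0.473), but was called without SKBR3 replicate 2 (adjusted p = 0.00181), with denser islands only (0.0158) and with limma (0.0417). HOXD4 and HOXD11 had no island in any sample, and HOXD1 and HOXD9 were touched by an island in BT474 replicate 1 only, of 49 and 38 reads, most of which fell outside their windows.

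By position, BT474 was higher at 5 of 6 tested anterior genes, 10 of 13 central genes and 5 of 14 posterior genes, and SKBR3 at 0, 2 and 1. Without HOXB the counts with BT474 higher were 2 of 3, 5 of 8 and 3 of 12. Over all windows tested BT474 was higher at 33.9% and SKBR3 at 27.1%, and the posterior genes (35.7%, and 25.0% without HOXB) lay near the former share. These groups were not tested against each other. Of the 12 posterior genes outside HOXB, 8 did not pass the test. The 4 genes of paralogue group 13 went different ways, with HOXA13 and HOXB13 higher in BT474, HOXC13 higher in SKBR3 and HOXD13 not passing. All 3 genes of group 8 were higher in BT474, each with 0 in SKBR3, and neither tested gene of group 11 nor of group 12 passed the test.

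With 1 BT474 sample left out and reads needed in 1 sample only, an alternative chosen after the data were seen, the 10 HOXB windows, HOXC9, HOXC4, HOXC6 and HOXA6 stayed called without either BT474 sample. HOXA2, HOXA13, HOXC8, HOXD3 and HOXD8 then lost the call without either BT474 sample (adjusted p between 0.126 and 0.637). HOXC13 lost it without BT474 replicate 2 (adjusted p = 0.0516). Without either SKBR3 sample HOXA6 and HOXA7 had too few reads for the test. The HOXB windows and HOXC9 were at 0 in SKBR3 and HOXA6 was at 0 in BT474, so their calls add nothing to the islands themselves.

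The start of the gene was under an island for 9 and 10 of the 38 HOX genes in the SKBR3 samples (23.7% and 26.3%) and for 15 and 14 in the BT474 samples (39.5% and 36.8%). Over all genes the share was 13% and 15.1% in SKBR3 and 18.7% and 17.2% in BT474. In BT474, 10 of these starts in each sample were those of HOXB. The starts of HOXA3, HOXA5, HOXA6, HOXC10 and HOXC11 were under islands in both SKBR3 samples and in no BT474 sample.

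Non-coding genes of the clusters followed the islands around them. Of the 11 long non-coding RNA genes listed, 4 had islands in all samples, 6 in both BT474 samples only and 1, HOTAIRM1, in BT474 replicate 1 only. HOXB-AS1 and HOXB-AS3 were covered for 100% in both BT474 samples and 0% in SKBR3. HOTAIR, transcribed against HOXC11 and known for its link to Polycomb, was covered for 68.1% and 69.3% in SKBR3 and 65.7% and 48.9% in BT474. HOTTIP, beyond HOXA13, was covered for 25.2% and 28.4% in BT474 and 0% in SKBR3. These genes were not part of the test across coding genes.

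The miR-196 genes lie inside 3 of the clusters, and their products repress HOX transcripts, HOXB8 among them. MIR196A1, in HOXB, was covered for 0% and 0% in SKBR3 and 100% and 100% in BT474. MIR196A2, in HOXC, was covered for 36% and 26.3% in SKBR3 and 100% and 100% in BT474. MIR196B, in HOXA, was covered for 9.38% in every sample, and MIR10B, in HOXD, for 0% in every sample. Both miR-196a genes give the same mature strand, which is set beside that of miR-196b (RefSeq) to show that the locus on which the lines were alike encodes the same seed. Capitals mark the seed, bases 2 to 8, and the strands differ at 1 position, base 12.
miR-196a-5p: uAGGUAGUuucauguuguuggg
miR-196b-5p: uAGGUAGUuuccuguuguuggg

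The genes that work with HOX proteins or keep their clusters in a state were read from the same fit, in which 27.1% of all windows tested were higher in SKBR3 and 33.9% in BT474. Of the TALE cofactors, 8 of 9 were tested, 4 were higher in SKBR3 and 2 in BT474, with a median log2 ratio of 0.44 against -0.21 over all windows tested. PBX3 was covered for 5.52% and 4.63% in SKBR3 and 39.2% and 38.9% in BT474 (log2 ratio -3.49, SE 0.18, edgeR adjusted p = 0.00132). MEIS2 was higher in SKBR3, at 24.1% and 22.8% against 15.3% and 15.0% (log2 ratio 0.78, SE 0.08, edgeR adjusted p = 0.0041). Of 16 Polycomb genes tested, 6 were higher in SKBR3 and 6 in BT474. CBX2 and CBX8, which encode chromodomain subunits, were among the former (log2 ratios 2.05 and 2.60), and EZH2, the H3K27 methyltransferase, was among the latter (log2 ratio -1.04). PCGF2, on chromosome 17, was covered for 21.3% and 19.3% in SKBR3 and 100% and 100% in BT474. Of 9 Trithorax genes tested, 2 were higher in SKBR3, KMT2A and RBBP5, and 5 in BT474. MEN1 had the largest log2 ratio among the latter with islands in both lines, at -2.82. Of 8 ParaHox and even-skipped genes, relatives of the HOX genes outside or beside the clusters, 4 were tested. CDX1 was higher in SKBR3, and PDX1 and EVX2, which adjoins HOXD13, were higher in BT474. Levels of a mark at a gene do not give its expression.

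HER2 peaks near the HOX clusters were listed in BT474 only. The SKBR3 lists were too short for the absence of peaks there to be read as a difference between the lines. Within 50 kb of the clusters, a region of 0.931 Mb, no peak was listed in SKBR3 after vehicle (of 2596) or after EGF (of 2520). BT474 had 1 peak after vehicle (of 8559) and 12 after EGF (of 29326). This came to 12.9 peaks per Mb after EGF against 9.66 per Mb over the genome, and to 1.07 against 2.82 after vehicle. In SKBR3 the genome held 0.855 peaks per Mb after vehicle and 0.830 after EGF, and 5.13% and 5.41% of all windows held a peak, against 0 HOX windows. A HER2 peak lay in the window of 9 of the 38 HOX genes in BT474 after EGF (23.7%, against 35.1% of all windows) and of 2 after vehicle (5.26%, against 15.9%). The 9 were HOXA2, HOXA3, HOXA5, HOXA6, HOXA7, HOXC6, HOXC8, HOXC10 and HOXD11, and the 2 were HOXA3 and HOXA6. Each condition has 1 list, so no test between conditions was made, and the list after EGF was 3.43 times as long as that after vehicle.

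By cluster, the 12 peaks after EGF fell 4 to HOXA, 6 to HOXC, 2 to HOXD and 0 to HOXB, and 9 of them lay inside a cluster. The nearest peak to HOXB was 386 kb away in BT474 after EGF and 1203 kb after vehicle. In SKBR3 it was 1389 kb away after EGF and 2708 kb after vehicle. HOXB, which had the most H3K4me1 in BT474, had no HER2 peak in BT474, and none in SKBR3, where it had no island. Its region was small, at 0.304 Mb, against 9.66 peaks per Mb over the genome in BT474 after EGF. The study also removed regions of high input signal. The part of this removal, and any link between mark and peaks, was not tested. Of the 12 peaks, 3 (25%) overlapped an H3K4me1 island of either BT474 sample, all in HOXC, against 14.0% of the whole list.

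In HOXA a single site was listed after vehicle and after EGF. It lies in introns of HOXA6 and HOXA3, where BT474 had no H3K4me1 island. Its score was 35.5 after vehicle, above that of 16.9% of the list, and 82 after EGF, above that of 69.4% of the list. The scale of the score is not stated, so these values were not compared between lists. The other HOXA peaks after EGF lay in the coding sequence of HOXA2, the untranslated part of HOXA5 and 0.468 kb from the start of HOXA7, with scores of 29, 43 and 43 against a list median of 56.

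In HOXC, peaks after EGF lay in the exons of HOTAIR (scores 20 and 26, each in an island of 1 BT474 sample) and in the untranslated part of HOXC10 within 0.554 kb of the start of HOXC6 (score 54, in an island of both BT474 samples). A further peak lay within HOXC6, 2.86 kb from the start of HOXC4 (score 33, in no BT474 island), and 84.0% of its bases were pyrimidines. Another pair lay 29.1 and 48.5 kb outside the cluster on the side of HOXC13. In HOXD one peak lay in an intron of HOXD11 (score 63) and another 42.0 kb beyond HOXD1 (score 23.5). HOXD11 had no H3K4me1 island in any sample. The median score of the 12 was 34, and only 2 were at or above the median of their list.

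The sequences of 2 of these sites are shown, the shared HOXA site and a site of one-sided base composition. Both are GRCh37, plus strand. In the HOXA site, of 282 bases at chr7:27186290-27186571, capitals mark the 233 bases that are also in the peak listed after vehicle.
HOXA6 intron: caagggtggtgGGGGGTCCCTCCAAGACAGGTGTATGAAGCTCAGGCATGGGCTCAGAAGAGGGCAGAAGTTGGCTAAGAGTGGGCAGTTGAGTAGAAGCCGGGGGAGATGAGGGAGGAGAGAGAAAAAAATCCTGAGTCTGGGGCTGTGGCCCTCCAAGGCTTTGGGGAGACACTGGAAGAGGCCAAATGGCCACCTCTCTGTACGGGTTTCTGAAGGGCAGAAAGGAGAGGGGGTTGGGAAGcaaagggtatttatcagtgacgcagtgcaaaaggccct
The HOXD11 site is shown for its central 300 bases, chr2:176971019-176971318, of which 79.3% are purines.
HOXD11 intron: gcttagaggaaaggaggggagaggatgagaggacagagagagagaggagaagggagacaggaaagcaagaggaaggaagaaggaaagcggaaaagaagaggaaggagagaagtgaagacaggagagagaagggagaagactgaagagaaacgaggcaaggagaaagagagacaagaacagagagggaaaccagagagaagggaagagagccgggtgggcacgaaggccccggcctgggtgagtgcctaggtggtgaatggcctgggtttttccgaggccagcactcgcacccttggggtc
Of the 12 peaks, 3 (25%) held at least 75% pyrimidines or purines on a strand, against 4.02% of the whole BT474 list after EGF. The sequence CGTNTGC, searched for on both strands because the study names it as a core of HER2 sites, was in none of the 13 peaks, and in 11.8% of the BT474 list after EGF and 19.4% of that after vehicle.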

How the data were processed

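The ChIP-exo data were 4 lists of HER2 peaks, 1 per line and treatment, and the ChIP-seq data 4 lists of H3K4me1 islands, 2 per line. Samples were grouped by the labels, and the input samples were not analysed here. The study's methods state mapping of 36-base reads to hg19 with bowtie2, peak calling with MACS2, island calling with SICER, and removal of ENCODE blacklist and GreyListChIP regions. The submitters' processing notes name BWA 0.5.9, MACS 1.4.1 and SICER 1.1. The deposited read count of an island was not normalised. The deposited peak score has no stated scale, and the depth behind the peaks is unknown.

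Members and gene lists were chosen with earlier results of these data known. The genes named were, per cluster, the 3 called genes with the largest ratio, the highest and lowest levels in each line, windows with a HER2 peak and windows at 0 in a line. A further HOX gene and some other items are not reported here. Genes came from GENCODE 44 mapped to GRCh37. Island reads were shared out by length over gene windows (20090 coding genes) or 5 kb bins. Features with at least 10 reads in 2 samples were tested with edgeR 4.0.16 (TMM, quasi-likelihood test, R 4.3.3), with Benjamini-Hochberg adjustment over all features. DESeq2 1.42.0 and limma 3.58.1 (pseudocount 1) were alternatives. The median log2 ratio over all windows tested was -0.21, and -0.40 when scaled by totals. The lists were TALE, Polycomb, Trithorax, ParaHox, microRNA and long non-coding genes, and luminal, hormone receptor, basal and blood markers. The code was tested on simulated data.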

Additional observations from a re-analysis of the deposited data

How the results depend on the processing

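The 10 HOXB windows were called higher in BT474 in every setting that tested them. With 0 reads in both SKBR3 samples they entered a fit only through BT474, so these calls add nothing to the islands themselves. Beside the 23 windows called with all samples, the number called was 4 to 23 when 1 sample was left out, not always of these windows (SKBR3 higher 1 to 4, BT474 higher 2 to 22). Without a BT474 sample only 17 windows passed the filter, HOXB not among them. With reads needed in 1 sample (chosen after seeing the data), BT474 was higher at 13 without BT474 replicate 1, and 14 were called without replicate 2, 1 and 13 by direction. SKBR3 was higher at 1 with no margin and at 1 with denser islands only. The labels do not say whether equal replicate numbers pair samples across the lines. The correlation of deviations was -0.100, which with so few samples cannot settle it. With the replicate block 15 windows were called, 1 higher in SKBR3, and 0 bins (0 in SKBR3, 0 in BT474; 0 of 154318 across the genome by edgeR, with 47 of 71 HOX bins at an unadjusted p below 0.05). Bins called were 6 to 55 with 1 sample left out (SKBR3 2 to 6, BT474 3 to 53), 118 with 2 kb bins (7 and 111) and 29 with 10 kb bins (26 higher in BT474).

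Log2 ratios that changed sign were those of HOXA10 (1.20), HOXA3 (9.58), HOXC10 (0.90), HOXC13 (-0.34) and HOXA11 (-0.0089) within 2 kb of the start. HOXA11 was -0.11 with totals, -0.062 with limma, -0.21 with no margin and -0.067 with 5 kb, and -0.091 to 0.24 with 1 sample left out. HOXA3 was 0.068 with local density, 0.064 without BT474 replicate 1 with reads needed in 1 sample, and -0.54 to 0.36 with 1 sample left out. HOXA5 was -0.20 with no margin. HOXC11 was -0.15 with 5 kb, -0.11 with denser islands and -0.82 with whole island reads. HOXD12 was -0.16 with totals, -0.040 with limma, -0.18 with 5 kb, -0.21 with whole island reads, and -0.20 to 0.23 with 1 sample left out. HOXD13 was -0.71 to 0.063 with 1 sample left out. The causes were not tested.

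The HOXC level ratio was 0.485 with denser islands and 0.652 with TMM, and 0.530 to 0.614 with 1 sample left out. The HOXD cover difference (SKBR3 minus BT474) was -2.64 points with denser islands. With 1 sample left out the cover differences were -11.6 to -0.202 (HOXA), -75.9 to -74.5 (HOXB), -23.7 to -18.1 (HOXC) and -8.63 to -6.08 (HOXD), and level ratios 0.469 to 0.768 (HOXA) and 0.182 to 0.327 (HOXD). HER2 peaks numbered 1 in SKBR3 after vehicle within 100 kb, and, at or above the median score, 0 in BT474 after vehicle and 2 after EGF.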

Other observations

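Among a selection of genes beside the clusters, those at HOXB were also higher in BT474, against 33.9% of all windows tested. CALCOCO2 and SNX11 there did not pass the test (edgeR adjusted p = 0.0745 and 0.120). This was not particular to HOXB, since SKAP2 beside HOXA, SMUG1 beside HOXC and MTX2 beside HOXD were called higher in BT474 too. Further neighbours of these clusters were called higher in BT474 as well, CBX5 beside HOXC and NFE2L2 beside HOXD among them. Some did not pass, such as HIBADH beside HOXA and HNRNPA1 beside HOXC, and SNX10 beside HOXA was higher in SKBR3. PRAC1 and PRAC2, small genes between HOXB9 and HOXB13, were covered for 0% in both SKBR3 samples and for 100% in both BT474 samples. TTLL6, a tubulin ligase gene 33.5 kb after the cluster, was covered for 3.73% and 3.05% in SKBR3 and for 92.2% and 73.9% in BT474 (log2 ratio -6.04, edgeR adjusted p = 0.00101). ATP5MC1, which encodes a subunit of the mitochondrial ATP synthase 164 kb after the cluster, was covered for 0% and 0% against 85.9% and 88.7% (edgeR adjusted p = 0.00272). On the other side SKAP1 was covered for 1.26% and 1.26% in SKBR3 and 3.92% and 3.32% in BT474 (log2 ratio -1.76, edgeR adjusted p = 0.00199). Beyond HOXD1, MTX2 was covered for 12.7% and 6.61% in SKBR3 and for 41.3% and 41.9% in BT474 (log2 ratio -1.88, edgeR adjusted p = 0.0122). EVX1, beyond HOXA13, had an island in SKBR3 replicate 1 only and was not tested.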
